A study of Danio rerio with 4 samples.

Results

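The circadian clock genes described here are the 9 transcripts whose gene symbol in the deposited table is *per1a*, *per1b*, *per2*, *per3*, *cry1a*, *cry1b*, *cry2a*, *cry2b* or *nr1d1*. Their rows were found by symbol alone, but the 9 genes were chosen with earlier results of these data known. Each symbol had 1 row among the 27423 transcripts of the table, and all 9 rows had a value of 100 or more in every library, as did 13633 transcripts in all. RNA came from pooled whole zebrafish embryos of 2 mutant lines at 48 hours post fertilisation (hpf), with 1 library for each of 4 conditions. *gsp* mutants were homozygous for *goosepimples*, a mutation in the gene of the actin motor Myosin Vb, and *gsp* siblings were heterozygous and homozygous wild-type embryos of the same crosses in a mixed pool. *rhs* mutants were homozygous for *romeharsha*, a locus whose gene was unknown, and *rhs* siblings again mixed carriers with homozygous wild-type embryos. In both lines mutants were told from siblings at 43 hpf, and in both the outer epidermal cells round up. The labels give 20 embryos from 3 clutches per condition, and the study's methods give a larger number. The hour of fixation and the lighting of the embryos are not given in the sources used here, and each line came from its own crosses, so line, clutch and time of collection cannot be told apart.

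The vertebrate circadian clock is a feedback loop of transcription that runs in nearly every cell. The CLOCK and BMAL proteins bind E-box elements together and switch on the period and cryptochrome genes, whose proteins return to the nucleus and hold CLOCK and BMAL in check. Another loop sets the REV-ERB receptors, which repress BMAL genes, against the ROR receptors, which activate them. Zebrafish kept extra copies of many of these genes, and zebrafish cells sense light directly, with *per2* and *cry1a* among the genes that light induces.

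The deposited values were read, as an inference from the values, as estimated counts per transcript, with no scaling between libraries and a floor of 1. Their totals ran from 106188690 to 118680429 per library. Since each condition has 1 library, no difference below could be checked against replicates or tested. The range after a ratio is its 95% counting interval (exact, Clopper-Pearson), which covers counting error only. Among whole values from 2 to 20, 282 of 340 (82.9%) were even, so the intervals are too narrow if both mates of a read pair were counted. With every value halved, the interval of *per1a* between the siblings reached 1 (0.510 to 1.04), while every other member interval that lay clear of 1 still did. *myo5b*, the gene mutated in *gsp*, was listed at 1 in both *gsp* libraries, and at 193 in the *rhs* mutant against 87.8 in the *rhs* sibling. Its values thus give no check of the *gsp* labels. In the same way 117 transcripts stood at 1000 or more in both *gsp* libraries and at the floor in both *rhs* libraries, and 79 the other way round. A floor value is therefore given only as listed.

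For 6 of the 9 clock genes the siblings of the 2 lines differed more than either mutant did from its own sibling. For *per1a*, *cry2b* and *nr1d1* they did not. The share of all transcripts for which this held was not computed, so this count cannot be read as particular to the clock genes. The median absolute log2 ratio of all transcripts was 0.23 between the siblings, 0.21 in *gsp* and 0.29 in *rhs*. For the 9 clock genes it was 0.97, 0.12 and 0.29. For 7 of the 9 genes both *gsp* libraries lay below both *rhs* libraries, where 23.9% of all transcripts at 100 or more did so, and for 1 of 9 they lay above, against 19.3% of all. The *gsp* sibling had 0.304 to 0.538 of the *rhs* sibling's value for *per1b*, *per2*, *per3*, *cry1a*, *cry1b* and *cry2a*, 6 genes past the threshold used here. That threshold, a log2 ratio of 0.57 in either direction or close to 1.5-fold, is the one of the study's methods. Of all transcripts 9.58% were past it lower in the *gsp* sibling than in the *rhs* sibling. Against its own sibling the *gsp* mutant had 1 gene past it, *per1a*, and the *rhs* mutant had none. Of all transcripts 5.07% were higher and 4.83% lower in *gsp*, and 6.45% were higher and 12.6% lower in *rhs*. In RNA of whole embryos, fewer cells that express a gene and less RNA per cell cannot be told apart.

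**Figure D1:**
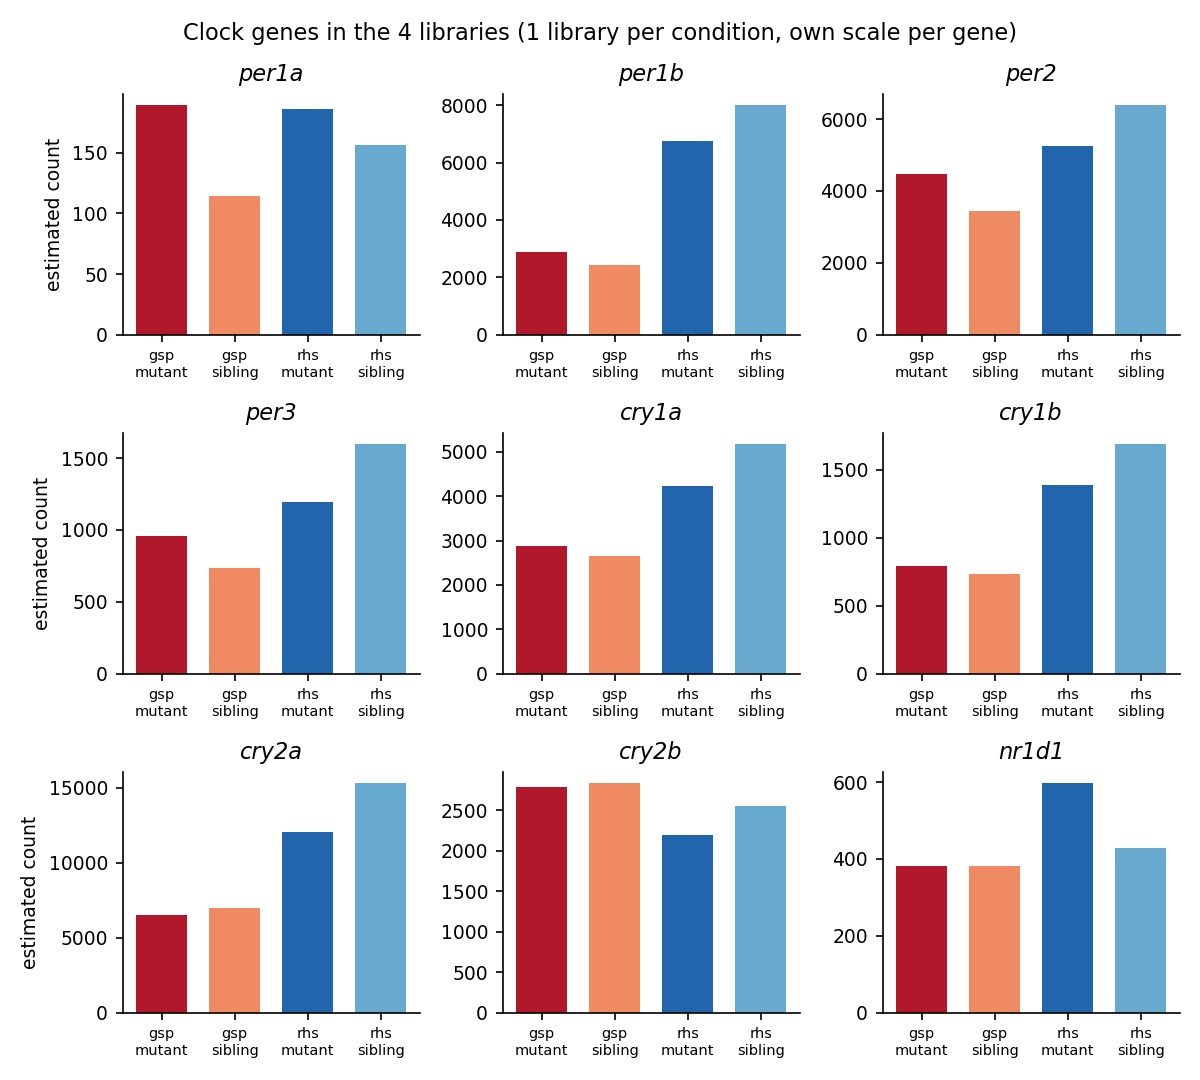
Estimated counts of the 9 clock genes in the 4 libraries, with a panel and a vertical scale from 0 for each gene. Bars are single libraries and carry no error. *per1b* stands at 2887 and 2431 in the *gsp* libraries, against 6763 and 8005 in the *rhs* libraries, and *cry2b* is the gene whose *gsp* bars are both higher.

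The period proteins are, with the cryptochromes, the inhibitors of the loop. *per1a* (Entrez gene 563926, chromosome 10 of danRer7 from 23012734 to 23028512) had an estimated count of 189 in the *gsp* mutant, against 114 in the *gsp* sibling, and 186 in the *rhs* mutant, against 156 in the *rhs* sibling. It had the smallest counts of the 9 genes, and its mutant libraries were both above both sibling libraries, as they were for 10.3% of all transcripts. Its ratio of mutant to sibling was 1.65 (1.31 to 2.11) in *gsp* and 1.19 (0.959 to 1.485) in *rhs*.

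*per1b* (Entrez gene 406204, chromosome 7 from 52277645 to 52301471), whose transcript cycles strongly in zebrafish, had 2887 in the *gsp* mutant, against 2431 in the *gsp* sibling, and 6763 in the *rhs* mutant, against 8005 in the *rhs* sibling. Its highest library was 3.29-fold above its lowest, the widest span of the 9, and the lines did not overlap. The mutant was at 1.19 (1.12 to 1.254) of its sibling in *gsp* and at 0.845 (0.818 to 0.873) in *rhs*.

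*per2* (Entrez gene 140633, chromosome 2 from 48424745 to 48470867), which light induces, had 4468 in the *gsp* mutant, against 3435 in the *gsp* sibling, and 5245 in the *rhs* mutant, against 6390 in the *rhs* sibling. The *gsp* mutant was at 0.852 (0.818 to 0.887) of the *rhs* mutant, and the lines did not overlap. Its ratio of mutant to sibling was 1.30 (1.24 to 1.36) in *gsp* and 0.821 (0.791 to 0.851) in *rhs*.

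*per3* (Entrez gene 58107, chromosome 11 from 41435237 to 41490992) had 957 in the *gsp* mutant, against 737 in the *gsp* sibling, and 1194 in the *rhs* mutant, against 1598 in the *rhs* sibling. The order of the libraries was that of *per1b* and *per2*, with the *rhs* sibling highest and the *gsp* sibling lowest. The *gsp* ratio of 1.30 (1.18 to 1.43) and the *rhs* ratio of 0.747 (0.693 to 0.806) lay farther apart than those of any other of the 9 genes.

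The cryptochromes are flavoproteins related to DNA photolyases, and the vertebrate repressor types bind the CLOCK and BMAL pair. *cry1a* (Entrez gene 100003956, chromosome 4 from 11078069 to 11091061), a light-induced repressor in zebrafish, had 2876 in the *gsp* mutant, against 2642 in the *gsp* sibling, and 4228 in the *rhs* mutant, against 5174 in the *rhs* sibling. The lines did not overlap, and each mutant stood between its own sibling and the other line. The mutant was at 1.09 (1.03 to 1.15) of its sibling in *gsp* and at 0.817 (0.784 to 0.851) in *rhs*.

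*cry1b* (Entrez gene 554836, chromosome 18 from 14692588 to 14715767) had 790.5 in the *gsp* mutant, against 733 in the *gsp* sibling, and 1384 in the *rhs* mutant, against 1688 in the *rhs* sibling. Both *gsp* values were far below both *rhs* values and differed little from each other. The ratio was 1.08 (0.973 to 1.19) in *gsp* and 0.820 (0.763 to 0.881) in *rhs*.

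*cry2a* (Entrez gene 573209, chromosome 8 from 21767736 to 21788333), which the reference table of gene names now calls *cry3a*, had 6545 in the *gsp* mutant, against 6996 in the *gsp* sibling, and 12071 in the *rhs* mutant, against 15314 in the *rhs* sibling. Here the mutant was the lower library in both lines, at 0.935 (0.904 to 0.968) in *gsp* and 0.788 (0.770 to 0.807) in *rhs*. Its log2 ratio in *gsp* was -0.10, and 0.03 after division by library totals, so its direction there depends on the scaling.

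*cry2b* (Entrez gene 83780, chromosome 22 from 748902 to 788048), now *cry3b* in the reference table, had 2785 in the *gsp* mutant, against 2839.8 in the *gsp* sibling, and 2199 in the *rhs* mutant, against 2551 in the *rhs* sibling. It varied least of the 9, by 1.29-fold from the highest library to the lowest, and alone had both *gsp* libraries above both *rhs* libraries. The ratio was 0.981 (0.930 to 1.03) in *gsp* and 0.862 (0.814 to 0.913) in *rhs*. Its row overlaps that of the antiproliferative gene *btg2* on the opposite strand, from 754597 to 757144, and whether reads were counted by strand is not stated. *btg2* had 42507 in the *gsp* mutant, against 8866 in the *gsp* sibling, and 34700.3 in the *rhs* mutant, against 10342 in the *rhs* sibling, ratios of 4.79 and 3.36. The part of *btg2* reads in the *cry2b* values was not tested. The other 8 clock genes overlap no row of the table.

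*nr1d1* (Entrez gene 494487, chromosome 3 from 23780061 to 23787461) encodes REV-ERB alpha, the nuclear receptor that represses BMAL genes. It had 382.3 in the *gsp* mutant, against 382.5 in the *gsp* sibling, and 598 in the *rhs* mutant, against 428 in the *rhs* sibling. The *rhs* mutant was the highest library for this gene and for no other of the 9. Its ratio was 0.999 (0.865 to 1.16) in *gsp* and 1.40 (1.23 to 1.59) in *rhs*, short of the threshold in both lines. On the log2 scale the ratio in *rhs* was 0.48, and 0.68, past the threshold, with ratios centred on the median transcript.

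For the ratio of mutant to sibling, all 9 clock genes lay above the median transcript in *gsp*, and 7 of 9 lay below it in *rhs*. The counting intervals of *cry2a* and *nr1d1* in *gsp*, and of *per1b*, *cry1b* and *cry2b* in *rhs*, reached the median transcript. With only 9 genes, the numbers beyond the threshold were not tested against the shares of all transcripts. In *gsp*, 1 of 9 was past the threshold on the higher side and 0 on the lower side, where 5.07% of all transcripts were higher and 4.83% lower. Their median log2 ratio was 0.12, against -0.11 for all transcripts. *per1a* had 3.46% of all transcripts above it, *per2* 8.82%, *per3* 8.87% and *per1b* 13.8%. The 4 period genes were all above 1 in *gsp*, as were 6 of the 9 clock genes and 34.6% of all transcripts. The median log2 ratio was 0.38 for the 4 period genes and 0.04 for the 4 cryptochromes. In *rhs*, 0 of 9 were past the threshold in either direction, where 6.45% of all transcripts were higher and 12.6% lower. The median of the 9 was -0.28, against -0.20 for all, and 7 of 9 had a ratio below 1, as did 73.1% of all. *nr1d1* had 7.86% of all transcripts above it there and *per1a* 13.4%, and *per3* was the lowest of the 9, with 22.9% of all below it. For *per1b*, *per2*, *per3* and *cry1a*, 4 of 9, the mutant was above its sibling in *gsp* and below it in *rhs*. Both counting intervals were clear of 1, as for 8.53% of all transcripts. Without regard to the intervals, 5 of 9 clock genes had these directions, against 18.5% of all transcripts. With ratios centred on the median transcript the *rhs* interval of *per1b* was no longer clear.

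Markers of single tissues moved in the same comparisons. Of 7 neuronal markers 6 were past the threshold lower in *rhs*, with a summed value of 40533 in the *rhs* mutant, against 73094 in the *rhs* sibling, and 0 were past it in *gsp*, with 63017 in the *gsp* mutant, against 68286 in the *gsp* sibling. Of 6 muscle markers 3 were higher in *gsp*, with a sum of 3105191 in the *gsp* mutant, against 2540566 in the *gsp* sibling. In *rhs* 3 of the 6 were lower, with a sum of 2068457 in the *rhs* mutant, against 2913737 in the *rhs* sibling. Of 5 epidermal markers 2 were higher and 2 lower in *gsp*, with a sum of 2228681 in the *gsp* mutant, against 4130919 in the *gsp* sibling. In *rhs* 2 of the 5 were higher and 0 lower, with a sum of 3666437 in the *rhs* mutant, against 3225787 in the *rhs* sibling. Of 8 photoreceptor and pineal markers 4 were lower in *rhs* and 0 were past the threshold in *gsp*. The part of these tissues in the clock gene values was not tested.

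**Figure D2:**
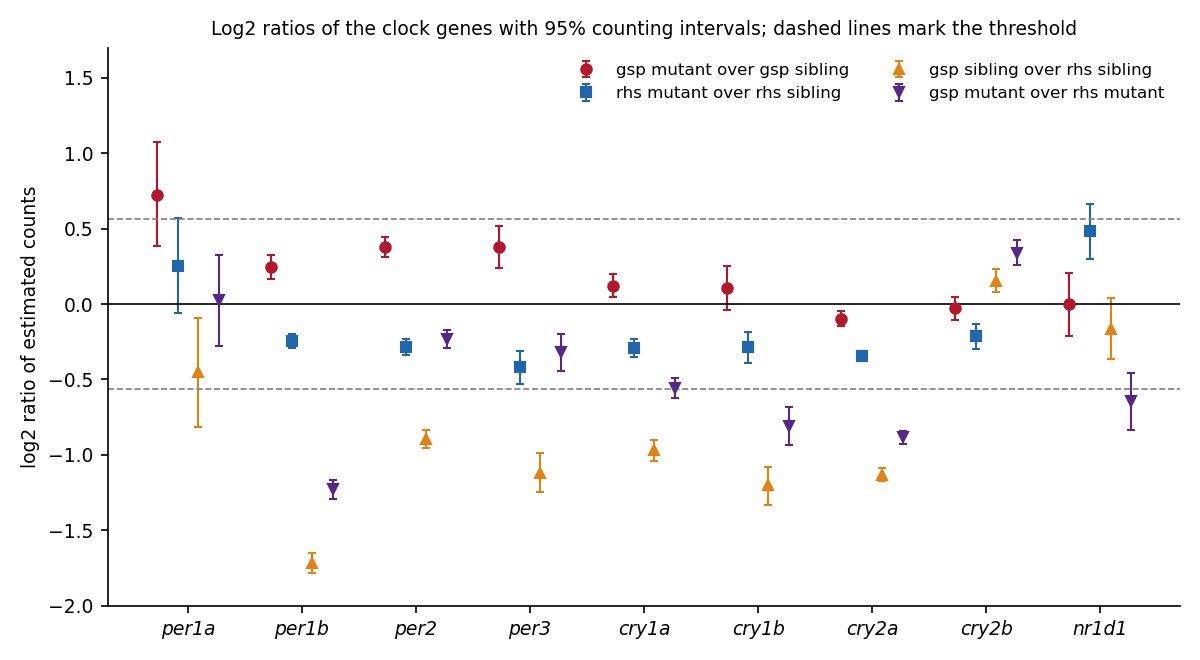
Log2 ratios of the 9 clock genes for the *gsp* mutant over its sibling, the *rhs* mutant over its sibling, the *gsp* sibling over the *rhs* sibling and the *gsp* mutant over the *rhs* mutant. Bars are counting intervals at a level of 95% and the dashed lines mark the threshold in either direction. The ratios between siblings of *per1b*, *per2*, *per3*, *cry1a*, *cry1b* and *cry2a* all lie below the lower line, from -1.72 to -0.90.

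The sibling pools were sorted to hold no homozygous mutant embryos. For 6 of the 9 genes they differed by more than either mutant did from its own sibling, a count without a share of all transcripts beside it. The *gsp* sibling had 0.304 (0.290 to 0.318) of the *rhs* sibling's value for *per1b*, and 1.53% of all transcripts had a lower ratio. *cry1b* followed at 0.435 (0.398 to 0.474), *cry2a* at 0.457 (0.444 to 0.470) and *per3* at 0.461 (0.422 to 0.504). *cry1a* was at 0.511 (0.487 to 0.535) and *per2* at 0.538 (0.516 to 0.560), with 4.93% of all transcripts below the ratio of *per2*. All 6 counting intervals lay below the threshold.

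The other 3 genes were within the threshold between the siblings. *per1a* was at 0.733 (0.569 to 0.936), *nr1d1* at 0.894 (0.775 to 1.03) and *cry2b* at 1.11 (1.05 to 1.17). In all, 0 of 9 were past the threshold on the higher side and 6 on the lower side, where 8.9% of all transcripts were higher and 9.58% lower. The median log2 ratio of the 9 was -0.97, against -0.06 for all transcripts, whose SD was 0.73. Leaving out transcripts whose siblings differ by the threshold or more, a step of the study's methods, keeps *per1a*, *cry2b* and *nr1d1* for a comparison of the mutants.

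**Figure D3:**
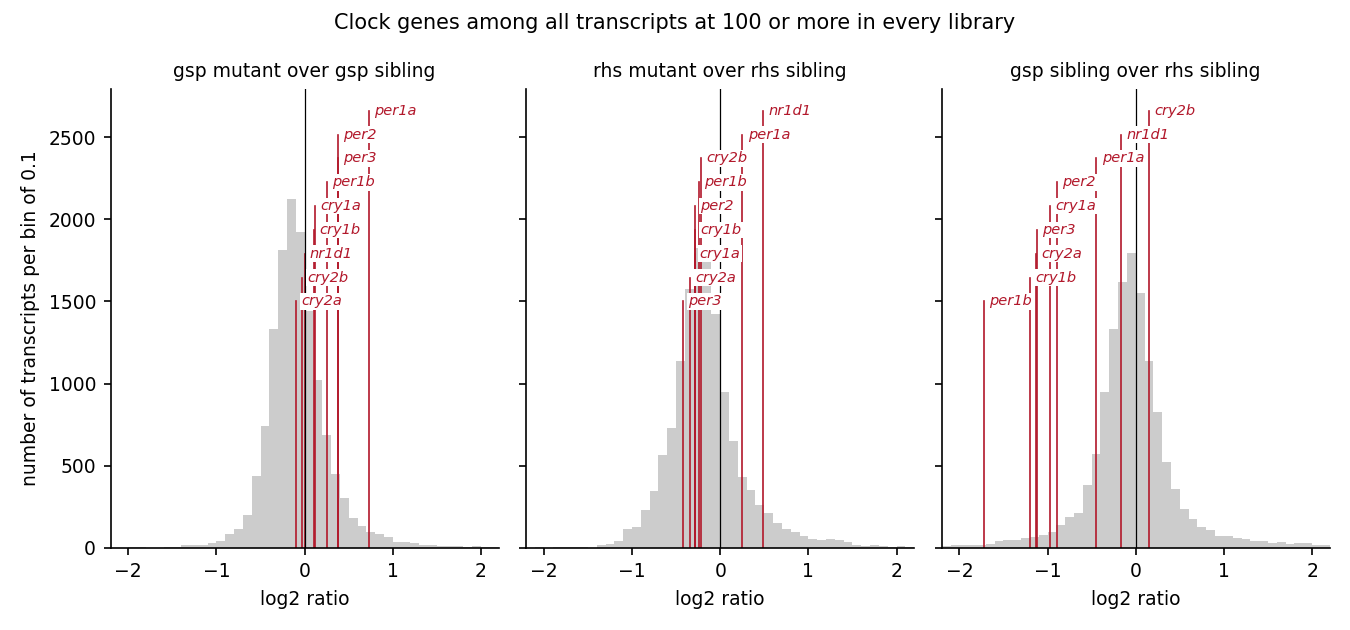
Log2 ratios of the 9 clock genes (red lines) over the distribution of all 13633 transcripts at 100 or more in every library (grey bars, number of transcripts per bin of 0.1 from -2.2 to 2.2). The heights of the red lines only separate the names. Counting intervals are not drawn, and some of them reach the median transcript. In *gsp* all 9 lines lie above the median transcript, with *per1a* past the threshold, in *rhs* 7 of 9 lie below it, and between the siblings 6 of 9 are past the lower threshold.

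Each row of the table carries a type label for each line, FL or MO, whose meaning is not given in the sources used here. The labels of *per3* and *cry2a* (FL in *gsp*, MO in *rhs*) and of *cry2b* (MO in *gsp*, FL in *rhs*) differ between the lines, and those of the other 6 genes are the same. Among these 6, 4 were past the threshold lower in the *gsp* sibling and 0 higher, where 9.14% of the transcripts with 1 label in both lines were lower and 8.34% higher, and their median log2 ratio was -0.93. The median of all 9 was -0.97. The part of the labels in the line difference was not tested.

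The mutant libraries showed the line difference in part. The *gsp* mutant had 0.427 (0.409 to 0.446) of the *rhs* mutant's value for *per1b*, 0.542 (0.526 to 0.559) for *cry2a* and 0.571 (0.522 to 0.623) for *cry1b*. Together with *nr1d1*, at 0.640 (0.560 to 0.728), 4 of 9 were past the threshold lower and 0 higher, where 10.7% of all transcripts were lower and 14.2% higher. *per1b*, *cry1b* and *cry2a* were past the threshold in the siblings and in the mutants, 3 of 9 against 6.13% of all transcripts, and 0 of 9 were higher in *gsp* in both, against 6.94%. *cry1a* was at 0.680 (0.649 to 0.713), just short of the threshold. The calls near the threshold depended on the scaling. The log2 ratio of *nr1d1* was -0.64, and -0.55 after division by library totals or -0.53 with a pseudocount of 100, short of the threshold, which leaves 3 of 9. That of *cry1a* was -0.56, and -0.78, past it, with the authors' normalized columns, which makes 5 of 9. *per3* was at 0.802 (0.735 to 0.873), *per1a* at 1.02 (0.825 to 1.251) and *cry2b* at 1.27 (1.20 to 1.34).

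The comparisons of siblings and of mutants share no library. Across the 9 genes the log2 ratios of the lines in siblings and in mutants had a Pearson's r of 0.78 and a Spearman's rho of 0.80, and across all 13633 transcripts 0.84 and 0.57. These are descriptions across genes of the same 4 libraries, and genes are not independent replicates. The median log2 ratio of the 9 was -0.56 in the mutants, against -0.97 in the siblings.

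Photoreceptor and pineal markers differed between the lines in the opposite direction. Of 12 such genes 8 had 100 or more in every library, and 4 of these 8 were past the threshold higher in the *gsp* sibling than in the *rhs* sibling, with none lower. The summed value of the 8 was 27366 in the *gsp* mutant, against 28548 in the *gsp* sibling, and 5604 in the *rhs* mutant, against 16559 in the *rhs* sibling. *crx*, a homeobox gene of photoreceptor and pineal precursors, had 13911 in the *gsp* mutant, against 14592 in the *gsp* sibling, and 2014 in the *rhs* mutant, against 8712 in the *rhs* sibling. The rod opsin gene *rho* had 2155 in the *gsp* mutant, against 2696 in the *gsp* sibling, and 497 in the *rhs* mutant, against 1234 in the *rhs* sibling. The pineal opsin gene *exorh* was listed at 123 in the *gsp* mutant, against 161 in the *gsp* sibling and at the floor in both *rhs* libraries, and no other gene of the 12 was at the floor. The part of these cells in the clock gene differences was not tested.

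Muscle markers had 0 of 6 past the threshold higher and 2 lower between the siblings, and epidermal markers 0 of 5 in either direction. Neuronal markers had 0 of 7 in either direction there, with summed values of 68286 in the *gsp* sibling and 73094 in the *rhs* sibling, and none of the muscle, neuronal or these 5 epidermal genes was at the floor. *epcam*, the sixth epidermal marker, was listed at 93323 in the *gsp* mutant, against 44135 in the *gsp* sibling and at the floor in both *rhs* libraries.

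The profile of each gene over the 4 libraries was set beside the median profile of the 9. That median is made from the values of the same 9 genes, so their nearness to it is partly built in. Centred on each gene's own mean, the median profile of the 9 was -0.20 in the *gsp* mutant, against -0.47 in the *gsp* sibling, and 0.24 in the *rhs* mutant, against 0.53 in the *rhs* sibling on the log2 scale. *cry1a*, *per3* and *per2* lay nearest to it, at root mean square differences of 0.06, 0.06 and 0.09. *cry1b* at 0.16 and *cry2a* at 0.20 came next. *nr1d1* at 0.33 and *per1a* at 0.36 followed, with the *rhs* mutant highest for *nr1d1* and the *gsp* mutant highest for *per1a*. *per1b* lay farther off, at 0.38, although it had the order of libraries of the median profile, with a wider span. *cry2b* at 0.49 was the farthest. Nearness to the median profile thus did not always go with its order of libraries. The 5 named genes outside the 9 with the nearest profiles were *kif1b* (0.03), *dnm2l* (0.04), *slc25a47a* (0.05), *pigp* (0.06) and *baz1b* (0.06). *kif1b*, a kinesin motor gene, had 3131 in the *gsp* mutant, against 2520.4 in the *gsp* sibling, and 4272 in the *rhs* mutant, against 5040.5 in the *rhs* sibling. Each of the 5 had the order of *per1b*, with the *rhs* sibling highest and the *gsp* sibling lowest. A profile over 4 libraries is a weak measure of likeness.

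Of the activators of the loop 1 of 6 was past the threshold between the siblings, against 6 of the 9 clock genes. The CLOCK and BMAL list matched 6 rows, all at 100 or more in every library. None was past the threshold in either mutant. In the *gsp* sibling 1 was lower and 0 higher than in the *rhs* sibling, where 9.58% of all transcripts were lower and 8.9% higher. Their median log2 ratio between the siblings was -0.07, against -0.97 for the 9 clock genes. The one past the threshold was *clock*, with 189 in the *gsp* mutant, against 130.5 in the *gsp* sibling, and 181 in the *rhs* mutant, against 237 in the *rhs* sibling, a ratio of 0.551 (0.439 to 0.682) between the siblings.

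*clock3* had 1488 in the *gsp* mutant, against 1311 in the *gsp* sibling, and 1228 in the *rhs* mutant, against 1654 in the *rhs* sibling. *npas2*, which can stand in for CLOCK in mammals, had 159.8 in the *gsp* mutant, against 199.6 in the *gsp* sibling, and 203 in the *rhs* mutant, against 203 in the *rhs* sibling. The BMAL gene *arntl1a* had 2377 in the *gsp* mutant, against 2791 in the *gsp* sibling, and 2339.7 in the *rhs* mutant, against 3017 in the *rhs* sibling. These 3 genes were within the threshold in all 4 comparisons.

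The other BMAL1 copy *arntl1b* had 1711 in the *gsp* mutant, against 1655 in the *gsp* sibling, and 1064 in the *rhs* mutant, against 1332 in the *rhs* sibling. It was higher in the *gsp* line, by 1.61-fold in the mutants. *arntl2* had 2945 in the *gsp* mutant, against 3104 in the *gsp* sibling, and 2095 in the *rhs* mutant, against 2909 in the *rhs* sibling. All 6 genes were below their sibling in *rhs*, at ratios of 0.720 to 0.998, as were 73.1% of all transcripts. Their median log2 ratio there was -0.38, against -0.20 for all transcripts.

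Of the other REV-ERB and ROR receptor genes 10 rows were found, 6 of them at 100 or more, while *nr1d4a*, *nr1d4b*, *rorcb* and *rorc* were listed at the floor in every library. *nr1d2a*, a REV-ERB beta gene, had 6099 in the *gsp* mutant, against 3308 in the *gsp* sibling, and 6618 in the *rhs* mutant, against 4523 in the *rhs* sibling. Both mutants were above both siblings, with ratios of 1.84 (1.77 to 1.92) in *gsp*, past the threshold, and 1.46 (1.41 to 1.52) in *rhs*, just short of it. Its log2 ratio in *rhs* was 0.55, and from 0.61 to 0.75, past the threshold, under each of 4 scalings (median-centred ratios, TMM, library totals and the authors' normalized columns). Its paralogue *nr1d2b* had 7119 in the *gsp* mutant, against 7478 in the *gsp* sibling, and 9042 in the *rhs* mutant, against 9704 in the *rhs* sibling.

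Among the ROR genes, 3 were past the threshold in *rhs*, all lower, and 0 were in *gsp*. *rorb* had 2531 in the *gsp* mutant, against 2285 in the *gsp* sibling, and 1201 in the *rhs* mutant, against 2547 in the *rhs* sibling, a ratio of 0.471 in *rhs*. *rorab* had 4937 in the *gsp* mutant, against 6026 in the *gsp* sibling, and 2845 in the *rhs* mutant, against 5346 in the *rhs* sibling, a ratio of 0.532 in *rhs*. In the same comparison 6 of the 7 neuronal markers were lower, and their part in the ROR values was not tested.

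*rorca* had 2741 in the *gsp* mutant, against 3419 in the *gsp* sibling, and 1111 in the *rhs* mutant, against 1671 in the *rhs* sibling. Its line difference ran against that of the period genes, at 2.05 (1.93 to 2.17) between the siblings and 2.47 between the mutants. *roraa* had 257 in the *gsp* mutant, against 272 in the *gsp* sibling, and 229 in the *rhs* mutant, against 312 in the *rhs* sibling, within the threshold in all 4 comparisons.

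The PAR bZIP factors TEF, DBP and HLF activate genes through D-box elements, and the NFIL3 factors repress through the same element. Of 12 rows 9 were at 100 or more, with 1 higher and 0 lower in each mutant. Between the siblings 2 were higher and 2 lower in *gsp*, with a median of -0.29. *tef* (*tefa* in the reference table), which takes part in the light induction of *per2* in zebrafish, had 9472 in the *gsp* mutant, against 12241 in the *gsp* sibling, and 15054 in the *rhs* mutant, against 19086 in the *rhs* sibling. Its lines did not overlap, at 0.641 between the siblings and 0.629 between the mutants, the direction of the period genes.

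Its paralogue *tefb* went the other way, with 5480 in the *gsp* mutant, against 3820 in the *gsp* sibling, and 2617 in the *rhs* mutant, against 2741 in the *rhs* sibling. It was past the threshold between the mutants, at 2.09-fold, and within it between the siblings, and its type labels differ between the lines. *hlfa* had 1551 in the *gsp* mutant, against 2102 in the *gsp* sibling, and 739 in the *rhs* mutant, against 839 in the *rhs* sibling, and was 2.51-fold higher in the *gsp* sibling than in the *rhs* sibling. *hlfb*, again with differing labels, had 449 in the *gsp* mutant, against 528 in the *gsp* sibling, and 337 in the *rhs* mutant, against 276 in the *rhs* sibling. Members of the same family thus differed between the lines in both directions.

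*dbpa* had 138 in the *gsp* mutant, against 105 in the *gsp* sibling, and 115 in the *rhs* mutant, against 166 in the *rhs* sibling. *dbpb*, *nfil3-3* and *nfil3-4* had a value below 100 in at least 1 library. *nfil3-6* was past the threshold in both mutants, with 896 in the *gsp* mutant, against 525 in the *gsp* sibling, and 1609 in the *rhs* mutant, against 729.7 in the *rhs* sibling. The *gsp* ratio was 1.71 (1.53 to 1.904) and the *rhs* ratio 2.21 (2.02 to 2.41), and it was the only gene of the clock lists past the threshold in both mutants on the values as deposited. The other NFIL3 genes were within the threshold in both mutants. *nfil3* had 6832 in the *gsp* mutant, against 5756 in the *gsp* sibling, and 7263 in the *rhs* mutant, against 6946 in the *rhs* sibling. *nfil3-2* had 3104 in the *gsp* mutant, against 2388 in the *gsp* sibling, and 2346 in the *rhs* mutant, against 2917 in the *rhs* sibling. *nfil3-5* had 9338 in the *gsp* mutant, against 9111 in the *gsp* sibling, and 9683 in the *rhs* mutant, against 13158 in the *rhs* sibling.

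**Figure D4:**
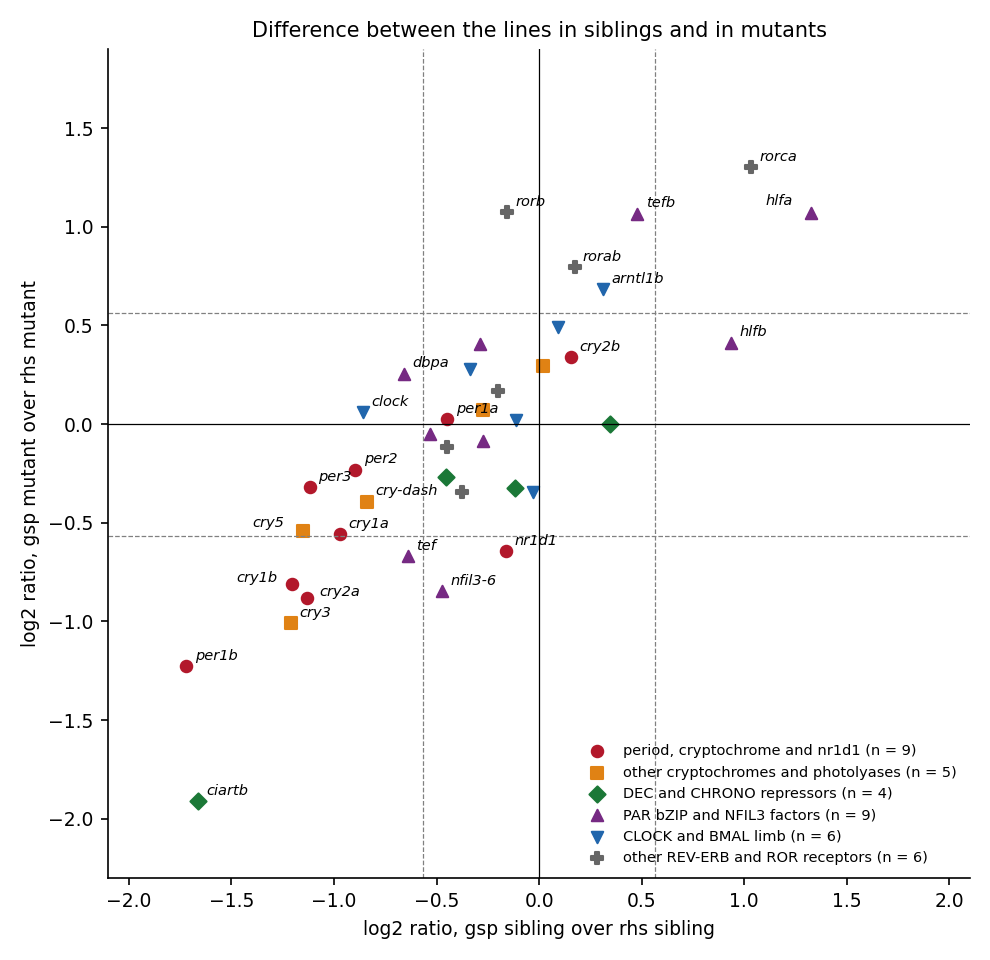
Log2 ratio of the *gsp* sibling over the *rhs* sibling (horizontal) and of the *gsp* mutant over the *rhs* mutant (vertical) for the 9 clock genes and 5 lists of other clock genes at 100 or more in every library. Dashed lines mark the threshold, and names are given for the 9 and for genes past it on either axis. *per1b*, *cry1b*, *cry2a*, *cry3*, *tef* and *ciartb* lie in the lower left corner, past it on both axes, and *rorca* and *hlfa* lie in the upper right corner.

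DEC and CHRONO proteins are further repressors of CLOCK and BMAL. None of 4 rows was past the threshold in either mutant. *ciartb*, a CHRONO gene, had 609 in the *gsp* mutant, against 606 in the *gsp* sibling, and 2292 in the *rhs* mutant, against 1921 in the *rhs* sibling. It was at 0.316 (0.287 to 0.346) of the *rhs* sibling in the *gsp* sibling, a difference of the size of *per1b*, and at 0.266 in the mutants. Its paralogue *ciarta* had 5641 in the *gsp* mutant, against 4941 in the *gsp* sibling, and 6787 in the *rhs* mutant, against 6769.5 in the *rhs* sibling, within the threshold in all comparisons.

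The DEC genes also stayed within it. *bhlhe40* had 9531 in the *gsp* mutant, against 9518 in the *gsp* sibling, and 11910 in the *rhs* mutant, against 10329.5 in the *rhs* sibling. *bhlhe41* had 518 in the *gsp* mutant, against 457 in the *gsp* sibling, and 518 in the *rhs* mutant, against 359 in the *rhs* sibling, with differing type labels.

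The 5 other cryptochrome and photolyase rows had a median log2 ratio of -0.84 between the siblings, with 3 lower and 0 higher. *cry5* encodes a photolyase that repairs UV damage, and had 592 in the *gsp* mutant, against 581 in the *gsp* sibling, and 861 in the *rhs* mutant, against 1293 in the *rhs* sibling. It was at 0.450 between the siblings, and at 0.666 in the *rhs* mutant, the 1 gene of this list past the threshold in a mutant. *cry-dash* had 1144 in the *gsp* mutant, against 1064 in the *gsp* sibling, and 1501 in the *rhs* mutant, against 1904 in the *rhs* sibling, and was at 0.559 between the siblings.

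*cry3*, chosen after its values were seen and now *cry2* in the reference table, had 1276 in the *gsp* mutant, against 1201 in the *gsp* sibling, and 2564 in the *rhs* mutant, against 2782 in the *rhs* sibling, with 0.432 between the siblings and 0.498 between the mutants. *cry4*, a cryptochrome that does not repress CLOCK and BMAL in zebrafish, had 3577 in the *gsp* mutant, against 3401 in the *gsp* sibling, and 2917 in the *rhs* mutant, against 3358 in the *rhs* sibling. The photolyase gene *cpdp* had 2563 in the *gsp* mutant, against 2783 in the *gsp* sibling, and 2439 in the *rhs* mutant, against 3361 in the *rhs* sibling. *cry4* and *cpdp* were within the threshold in all 4 comparisons.

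Kinases and ubiquitin ligases set the stability of the clock proteins. Of their 10 rows at 100 or more 0 were past the threshold between the siblings or between the mutants, and the ratios between the siblings ran from 0.744 to 0.968. *csnk1e*, a casein kinase that phosphorylates period proteins, was past it in *rhs*, with 1981 in the *gsp* mutant, against 1876 in the *gsp* sibling, and 1379 in the *rhs* mutant, against 2301 in the *rhs* sibling, a ratio of 0.599 in *rhs*. *csnk2a1*, *csnk2b* and *gsk3ab* stood between 0.848 and 0.914 of the sibling in *gsp*, and between 0.773 and 0.807 in *rhs*.

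Of 12 non-visual opsin rows 2 were at 100 or more and neither was past the threshold in any comparison. *opn4.1* had 128 in the *gsp* mutant, against 159 in the *gsp* sibling, and 111 in the *rhs* mutant, against 137 in the *rhs* sibling. *tmtops2b* had 2622 in the *gsp* mutant, against 2919 in the *gsp* sibling, and 2259 in the *rhs* mutant, against 3296 in the *rhs* sibling.

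Melatonin is a nightly output of the pineal clock, and 5 of 13 rows of its synthesis, regulation and receptors were at 100 or more. *aanat2*, the gene of the pineal enzyme that paces melatonin production, had 2595 in the *gsp* mutant, against 2771 in the *gsp* sibling, and 175 in the *rhs* mutant, against 248 in the *rhs* sibling. It was 11.2-fold (9.81 to 12.8) higher in the *gsp* sibling than in the *rhs* sibling and 14.8-fold higher in the *gsp* mutant than in the *rhs* mutant, although its type labels differ between the lines. Within the lines its ratio was 0.936 in *gsp* and 0.704 in *rhs*, inside the threshold in both.

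*otx5*, a pineal homeobox gene, had 6038 in the *gsp* mutant, against 5766 in the *gsp* sibling, and 1139.9 in the *rhs* mutant, against 3983 in the *rhs* sibling, a ratio of 0.286 in *rhs*. The tryptophan hydroxylase gene *tph1b* had 334 in the *gsp* mutant, against 250.2 in the *gsp* sibling, and 522 in the *rhs* mutant, against 431 in the *rhs* sibling. It was lower in the *gsp* sibling than in the *rhs* sibling, at 0.581. *tph2* had 332 in the *gsp* mutant, against 308 in the *gsp* sibling, and 240.0 in the *rhs* mutant, against 409.5 in the *rhs* sibling, and was past the threshold in *rhs*, at 0.586. *aanat2* and *otx5* are among the photoreceptor and pineal markers given above.

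In a list of 7 genes of the cell cycle and DNA repair, *cdkn1a*, which encodes the inhibitor p21, had 301 in the *gsp* mutant, against 240.4 in the *gsp* sibling, and 863 in the *rhs* mutant, against 586 in the *rhs* sibling. It was at 0.410 (0.351 to 0.477) between the siblings and 0.349 between the mutants, the direction of the period genes. *wee1*, a mitotic inhibitor and clock target in mammals, was higher in *rhs*, at 6093 in the mutant against 3896 in the sibling and a ratio of 1.56, and at 1.23 in *gsp*. *cdkn1cb* was past the threshold in *gsp*, at a ratio of 1.55, and had 1.06 in *rhs*, while the repair gene *ddb2* had 0.841 in *gsp* and 0.764 in *rhs* and was within it in both.

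Over all these lists together, 54 rows were at 100 or more. In *gsp* 3 of them were past the threshold on the higher side and 0 on the lower, and in *rhs* 2 were higher and 7 lower. The 5.56% higher in *gsp* and the 13.0% lower in *rhs* are near the 5.07% and 12.6% of all transcripts. Between the siblings 4 (7.41%) were higher and 9 (16.7%) lower in *gsp*, where 8.9% and 9.58% of all were, with a median log2 ratio of -0.22, against 6 lower of the 9 clock genes and a median of -0.97. For 5 of the 54 (9.26%) the *gsp* line was lower past the threshold in siblings and in mutants, against 6.13% of all transcripts, and for 3 (5.56%) it was higher, against 6.94%.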

How the data were processed

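RNA of 4 pools of whole zebrafish embryos was sequenced as paired reads, 1 library per condition, and grouped by the genotype labels. The authors trimmed reads with FastQC and the FastX toolkit, aligned them with TopHat and obtained a value for each transcript from DEGseq, on danRer7. The deposited values, called RPKM in the study and headed raw, were read here as estimated counts. This reading is an inference from the values, whose totals of 106188690 to 118680429 differ between libraries, and was not stated by the authors. The authors also deposited normalized log2 columns, an alternative here, and their own log ratios, folds and directions, which were not used.

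Ratios were taken without pseudocount over transcripts at 100 or more in every library. Exact Clopper-Pearson intervals at 95% were computed on rounded values (scipy 1.17.1, Python 3.11.15). TMM factors came from edgeR 4.0.16 (R 4.3.3), with no test. The code was tested on simulated data. The text names the 9 clock genes, every measured gene of the CLOCK and BMAL, REV-ERB and ROR, and PAR bZIP and NFIL3 lists, up to 4 of each other list with the largest mean absolute log2 ratio over both mutants, and the 5 named transcripts nearest to the median profile. The clock genes, lists and markers were chosen with earlier results of these data known. Symbols were matched by Entrez identifier to RefSeq gene names (GRCz12tu), 9 of 9 for the clock genes. Alternatives were other scalings, pseudocounts of 10 and 100, other sibling controls, a 2-fold threshold and other minimum values. The normalized columns and the restriction to 1 type label were added after seeing the data.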

Additional observations from a re-analysis of the deposited data

Results flagged for a closer look

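For 4 of the 9 clock genes the mutant lay above its sibling in *gsp* and below it in *rhs*, with both counting intervals clear of 1. So did 8.53% of all transcripts, a share that depends on the counts, since intervals are wider for smaller counts. Without regard to the intervals it was 5 of 9, against 18.5% of all transcripts. With ratios centred on the median transcript it was 7 of 9, against 20.7%, again by sign alone. The centred log2 interval of *cry2a* in *gsp* was -0.036 to 0.062, and that of *cry2b* in *rhs* was -0.100 to 0.066. Those of *per1b* and *cry1b* in *rhs* also reached 0. Both centred intervals were clear of 0 in these directions only for *per2*, *per3* and *cry1a*. With 1 library per condition the difference between the lines was not tested. *per3* had the widest difference, the log2 ratio in *gsp* minus that in *rhs* being 0.80. It was 0.66 for *per2*, 0.49 for *per1b* and 0.41 for *cry1a*. The fall in *rhs* depends on the scaling, since the median transcript there had a log2 ratio of -0.20. With ratios centred on that transcript the log2 ratios in *rhs* were -0.22 for *per3*, -0.087 for *per2*, -0.094 for *cry1a* and -0.046 for *per1b*, whose interval then reached 0. In each line the mutant value lay toward the value of the other line, so that for these genes the mutants differed less between the lines than the siblings did. The 2 differences are the same quantity taken from the same 4 values and do not count as separate observations.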

How the results depend on the processing

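The sibling difference held under every scaling and pseudocount, with 6 of 9 clock genes lower in the *gsp* sibling and a median log2 ratio from -1.03 to -0.91. It was 4 of 9 at a threshold of 2-fold, and 4 of the 6 genes with 1 type label. A minimum of 1000 leaves only *per1b*, *per2*, *cry1a*, *cry2a* and *cry2b*, of which 4 were lower. The counts in mutants depended on the control. In *gsp* the 1 higher gene, *per1a*, became 0 with a pseudocount of 100, a threshold of 2-fold or a minimum of 1000, which leaves *per1a* out. The count was also 0 with the other line's sibling as control, or the siblings' mean as control. With the last 2 controls 5 and 3 genes were lower, and the median log2 ratio of 0.12 turned to -0.74 and -0.29. It was 0.23 with ratios centred on the median transcript and 0.25 after division by library totals. In *rhs* the 0 higher genes became 8 with the other line's sibling, and 1, *nr1d1*, with median-centred ratios, TMM scaling or the authors' normalized columns. The median of -0.28 turned to 0.70 with the other line's sibling and 0.11 with the mean of both, and was -0.087 median-centred, -0.17 with TMM scaling and -0.12 with the normalized columns. These controls mix the line difference into the mutant ratio by construction. Centring moved the median transcript by 0.11 in *gsp* and 0.20 in *rhs*. No clock gene's own value changed sign among those past the threshold, which for mutant over sibling was *per1a* in *gsp* alone. Genes within the threshold did change sign. With the other line's sibling or the siblings' mean as control, *per1b*, *per2*, *per3*, *cry1a* and *cry1b* turned lower in *gsp*. In *rhs* these genes and *cry2a* turned higher with either control. The directions of *cry2a*, *cry2b* and *nr1d1* in *gsp* depended on the scaling. *per1a* kept its sign in both lines, and *cry2b* and *nr1d1* kept theirs in *rhs*. No paired analysis was possible because the labels give no replicate numbers and each condition has 1 library, and for the same reason no replicate could be left out. The smallest counts, those of *per1a*, give its ratio the widest counting intervals.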
